A study of Mus musculus with 9 samples.

Results

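The mRNAs of the mitochondrial ribosomal proteins were followed in sorted proximal tubular epithelia of non-diabetic mice, diabetic mice and diabetic mice given dapagliflozin. They were chosen by name, as every symbol of the deposited table that starts with Mrpl (large subunit) or Mrps (small subunit) and goes on with a digit. The rule found 77 of the 24421 rows, 48 of the large and 29 of the small subunit, and all 77 were among the 15583 genes tested. All 9 mice were C57BL/6 by their labels and carried SLC34a1GCE, a tamoxifen-inducible Cre in the locus of a proximal tubular phosphate transporter, with the R26tdTomato reporter. Tamoxifen was first given at 8 weeks of age. The 3 *db/m* mice were heterozygous for the Leprdb mutation of the leptin receptor, and the 6 *db/db* mice were homozygous for it. Of these 6, 3 received vehicle (*db/db*) and 3 received dapagliflozin (*db/db*-dapa), an inhibitor of the glucose transporter SGLT2, at 1.5 mg/kg/day in drinking water for 8 weeks. Viable tdTomato-positive cells of the kidney cortex were collected by FACS, and poly(A) RNA of 1 mouse made 1 library. The labels name the tissue only as kidney. Reporter labeling marks cells by Slc34a1 expression when tamoxifen was given, so a cell keeps the label whatever it expresses later.

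Mitochondria keep a ribosome of their own, which translates the few mRNAs of mitochondrial DNA into core subunits of the respiratory chain. All of its proteins are encoded in the nucleus, made in the cytosol and imported, and they assemble on the 12S and 16S rRNAs into a small subunit that decodes mRNA and a large subunit that forms peptide bonds. The proximal tubule reabsorbs solutes mainly on energy from respiration and is among the segments of the nephron richest in mitochondria.

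The genes lay on 17 chromosomes of GRCm38 (mm10). Promoters of 68 of the 77 were found in the RefSeq table of GRCm38.p6, each 300 bases long and reaching 50 bases past the start. Letters known from promoters of nuclear genes for mitochondrial proteins were searched on both strands. CGCANGCG, read by nuclear respiratory factor NRF-1, was in 29.4% of these promoters, in 15.7% of those of 11582 genes tested and in 8.42% of all 27025 of the table. CCGGAAG, a core of sites of the ETS family, to which the alpha subunit of NRF-2 belongs, was in 35.3%, 16.2% and 9.12%. AAGATGGCG, a form of the YY1 site that can share its first 3 letters with the end of the ETS core, was in 11.8%, 2.86% and 1.5%. TGACGTCA, the site of CREB-like factors, was in 2.94%, 3.07% and 1.88%. At least 1 of the 4 was in 66.7% of the large and in 57.7% of the small subunit promoters, and 25 promoters held none. These shares describe letters and not binding. The 4 promoters shown belong to the most abundant large subunit mRNA (Mrpl12), to the most abundant small subunit mRNA per length (Mrps21), to a gene with 3 of the searched motifs (Mrps27) and to the gene that ran most against the others in *db/db*-dapa mice (Mrpl3). Capitals mark the searched letters on either strand, and each is written 5′ to 3′ on the strand of its gene:
Mrpl12, chr11:120484387-120484686, plus strand: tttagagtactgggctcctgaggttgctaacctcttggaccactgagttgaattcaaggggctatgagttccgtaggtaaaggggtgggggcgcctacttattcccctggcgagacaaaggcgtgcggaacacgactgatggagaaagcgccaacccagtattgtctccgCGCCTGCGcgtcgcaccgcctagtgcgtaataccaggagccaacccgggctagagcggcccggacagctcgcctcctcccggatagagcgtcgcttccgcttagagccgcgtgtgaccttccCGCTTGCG
Mrps21, chr3:95871465-95871764, minus strand: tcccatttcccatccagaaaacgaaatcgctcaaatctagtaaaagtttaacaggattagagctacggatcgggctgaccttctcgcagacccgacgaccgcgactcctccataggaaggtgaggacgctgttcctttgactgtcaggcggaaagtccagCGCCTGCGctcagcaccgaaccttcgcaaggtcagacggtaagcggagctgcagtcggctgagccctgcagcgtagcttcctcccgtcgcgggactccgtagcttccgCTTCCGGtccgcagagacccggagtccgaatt
Mrps27, chr13:99344536-99344835, plus strand: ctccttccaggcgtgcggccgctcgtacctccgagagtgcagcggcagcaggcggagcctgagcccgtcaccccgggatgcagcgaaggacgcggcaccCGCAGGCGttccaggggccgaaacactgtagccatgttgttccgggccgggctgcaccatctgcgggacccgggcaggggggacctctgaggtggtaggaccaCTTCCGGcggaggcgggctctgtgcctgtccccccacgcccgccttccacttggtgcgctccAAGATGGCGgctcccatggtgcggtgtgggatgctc
Mrpl3, chr9:105053018-105053317, plus strand: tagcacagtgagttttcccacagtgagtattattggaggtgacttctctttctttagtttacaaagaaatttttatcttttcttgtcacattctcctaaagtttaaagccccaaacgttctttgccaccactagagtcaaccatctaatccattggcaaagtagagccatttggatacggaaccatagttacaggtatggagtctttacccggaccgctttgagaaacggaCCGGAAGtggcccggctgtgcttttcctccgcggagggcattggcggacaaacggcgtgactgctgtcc

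Expression was read as CPM, counts relative to a library total that was scaled with TMM factors. Every one of the 77 mRNAs was detected in every mouse, with a lowest count of 51. Mean levels over the 9 mice ranged from 17.8 CPM for Mrpl47 to 271.5 CPM for Mrpl12, with a median of 50.5. Per kilobase of the longest transcript, the highest large subunit mRNAs were Mrpl12 at 206, Mrpl42 at 165 and Mrpl20 at 134 CPM per kb, and the lowest were Mrpl19 at 4.98 and Mrpl47 at 5.3. Among small subunit mRNAs, Mrps21 at 242, Mrps36 at 93.1 and Mrps18a at 81.4 CPM per kb were highest, and Mrps25 at 8.54 and Mrps17 at 9.97 were lowest. Mrps36 is named after the ribosome but is known as a component of the 2-oxoglutarate dehydrogenase complex. Subunits of the same complex therefore differed in mRNA level over a wide range, part of which depends on which transcript is taken as a gene's length. Exons of 8 members overlap another gene on the same strand, such as Mrps6 with Slc5a3, Mrps24 with Urgcp and Mrps34 with Nme3. In the annotation 27 overlap a gene of the opposite strand, of which Mrpl3, Mrpl53 and Mrps34 are also among those 8, and whether strand was used in counting is not stated, so the values of these genes can include reads of their neighbors.

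The depth was 2733349 to 9033123 counts per mouse. As a check of the sort, the 9 markers of the proximal tubule summed to 12858 to 20226 CPM per mouse, with Slc34a1 at 3530 CPM or more in each. The other marker lists were lower but not at 0. Summed levels were 339 to 1628 CPM for the 3 markers of the thick ascending limb, 286 to 869 for the 3 of the distal tubule, 139 to 737 for the 4 of the collecting duct, 95.5 to 465 for the 6 of leukocytes, 29.6 to 1462 for the 5 of red blood cells, 27.0 to 130 for the 4 of endothelium, 16.2 to 214 for the 3 of podocytes and 2.15 to 22.0 for the 4 of stroma. Defining markers at 0 in some mice were the stromal genes Col1a1 and Col3a1.

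Large and small subunit mRNAs moved together from mouse to mouse. Summed over the 48 large subunit genes, the level was 3325, 2976 and 4019 CPM in *db/m* replicates 1, 2 and 3. It was 3052, 3442 and 2169 CPM in the *db/db* and 2871, 2639 and 2514 CPM in the *db/db*-dapa replicates. The mice of *db/m* and *db/db* overlapped, and the *db/db*-dapa mice all lay below all *db/m* mice but above *db/db* replicate 3. Over the 29 small subunit genes the sums were 1692, 1482 and 2125 CPM in *db/m*, 1537, 1786 and 1092 CPM in *db/db*, and 1502, 1328 and 1268 CPM in *db/db*-dapa mice. Here *db/db*-dapa replicate 1 overlapped the *db/m* mice. The sum over all 77 was 5206 ± 859 CPM in *db/m* mice, 4359 ± 1003 CPM in *db/db* mice and 4040 ± 302 CPM in *db/db*-dapa mice, each with the SD of n = 3.

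The ratio of the large to the small sum hardly moved. It was 1.96, 2.01 and 1.89 in *db/m*, 1.98, 1.93 and 1.99 in *db/db*, and 1.91, 1.99 and 1.98 in *db/db*-dapa replicates. The 3 groups overlapped throughout, with means of 1.95 ± 0.059, 1.97 ± 0.034 and 1.96 ± 0.042 (SD, n = 3 each). Across the 9 mice the highest ratio was 1.06 times the lowest, with a coefficient of variation of 2.05%. The sums themselves varied 1.88-fold, with a coefficient of variation of 18.9%. The sums run over 48 large and 29 small subunit genes, so their ratio holds this difference in gene number. It is not a ratio of levels per gene. The gene with the highest counts also weighs most in a sum. The ratio of geometric means, taken per gene with the same weight for each, was 1.07 to 1.12 over the mice. It differs from the ratio of sums in both respects. By their place in the known structure, Mrps18a and Mrps30 belong to the large subunit and Mrps36 to neither. With that assignment the group means of the ratio of sums were 2.30, 2.30 and 2.31.

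**Figure D1:**
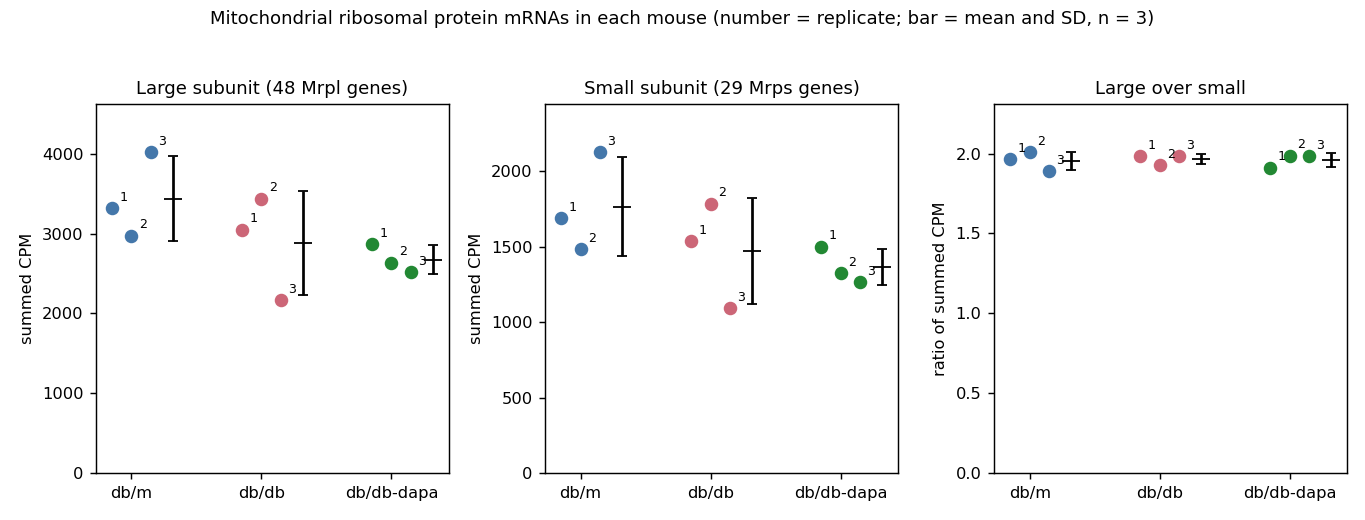
Summed CPM of the large subunit genes (left), of the small subunit genes (middle) and their ratio (right) in each mouse, with numbered points for replicates and bars for the mean and SD of 3 mice. Both sums are highest in *db/m* replicate 3 and lowest in *db/db* replicate 3, whereas the ratio stays between 1.89 and 2.01.

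The ends of this range were mice of different groups. In *db/m* replicate 3 the median deviation of a gene from its own mean, on log2(CPM + 1), was 0.40 for the large and 0.46 for the small subunit. In *db/db* replicate 3 it was -0.44 and -0.46, and 0 of the 77 genes lay above their mean there. The other *db/m* mice had 0.18 and 0.03 for the large and 0.12 and -0.02 for the small subunit. In *db/db* replicates 1 and 2 the values were 0.05 and 0.24 for the large and 0.03 and 0.25 for the small subunit. The *db/db*-dapa mice had -0.02, -0.17 and -0.21 for the large and 0.03, -0.19 and -0.21 for the small subunit. The mouse with the highest level was *db/m* replicate 3 for 49 of the 77 genes, and the mouse with the lowest was *db/db* replicate 3 for 60.

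**Figure D2:**
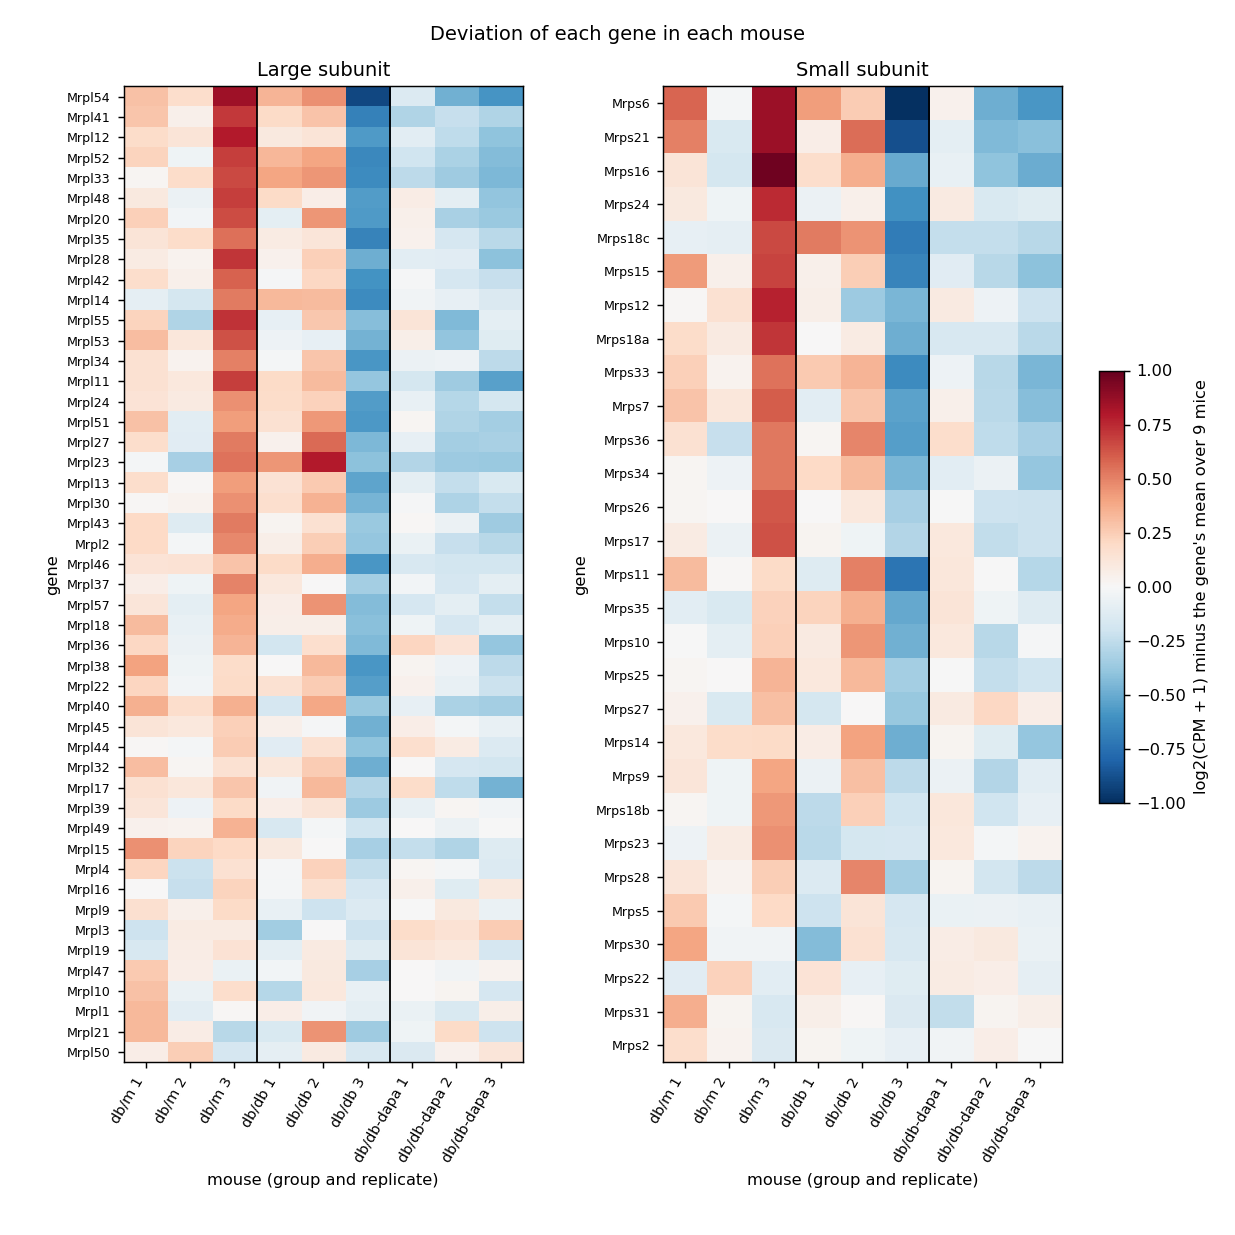
Each row is a gene and each column a mouse, and color gives log2(CPM + 1) minus the gene's mean over the 9 mice, with colors at their limit beyond 1. Rows run from the largest to the smallest difference between *db/m* replicate 3 and *db/db* replicate 3, the mice that were highest for 49 and lowest for 60 of the 77 genes.

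Not every gene took part. Mrps2, a conserved small subunit protein, was at 63.5, 57.6 and 50.7 CPM in *db/m*, 57.4, 54.6 and 53.2 in *db/db*, and 54.8, 58.9 and 56.0 in *db/db*-dapa replicates. Its highest value was 1.253 times its lowest. Mrps6, whose bacterial homolog is part of the platform of the small subunit, was at 54.2, 35.4 and 65.5 CPM in *db/m*, 48.3, 42.8 and 16.7 in *db/db*, and 36.9, 25.2 and 23.5 in *db/db*-dapa replicates, a 3.93-fold range. Within groups the spread was largest for Mrps6, Mrps21 and Mrpl54, with pooled SDs of 0.57, 0.53 and 0.50 on log2(CPM + 1). The median SD was 0.28 over the 77 genes and 0.26 over the 9135 genes at 10 CPM or more.

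Between *db/db* and *db/m* mice, the comparison of diabetic with non-diabetic tubules, most of these mRNAs were lower in *db/db* mice by a small amount that no gene carried past the test. The log2 fold change was below 0 for 74 of the 77 genes, with a median of -0.24, beside 48.4% below 0 and a median of 0.02 over all genes tested. The large subunit had a median of -0.24 and the small subunit of -0.23. The test was edgeR's quasi-likelihood test, with p-values adjusted after Benjamini and Hochberg, and a call needed both an adjusted p under 0.1 and a log2 fold change beyond 1 in either direction. Of the 77, 0 were called, where 1.26% of all genes were, and 0 had an adjusted p under 0.1, where 1.7% did. The smallest adjusted p was 0.246, and DESeq2 and limma also gave 0 genes with an adjusted p under 0.1. At an unadjusted p under 0.05, 5 genes were lower and 0 higher, against 6.22% and 7.53% of all genes. The groups did not overlap for 8 genes that were lower in *db/db* mice and for 0 that were higher, beside 8.14% and 8.28% of all genes. Those shares were near the background for lower genes.

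The members at the ends of this comparison were Mrps12, Mrpl53 and Mrps6 on the low side and Mrpl23, Mrps35 and Mrps10 on the high side. Mrps12, a protein of the decoding center, lies on chromosome 7 from 28739641 to 28741820. It was at 35.8, 39.4 and 61.1 CPM in *db/m* and 37.0, 27.4 and 25.5 in *db/db* replicates, and *db/db* replicate 1 overlapped the *db/m* mice. Its log2 fold change was -0.61 (standard error 0.23, edgeR adjusted p = 0.278). Mrpl53, a large subunit protein without a bacterial homolog, was at 46.3, 40.5 and 58.7 CPM in *db/m* and 36.0, 35.2 and 26.5 in *db/db* replicates. These values did not overlap, and the log2 fold change was -0.58 (standard error 0.21, edgeR adjusted p = 0.246). Mrps6 had -0.55 (standard error 0.36) with overlapping groups. Mrpl23, a protein at the exit of the peptide tunnel, was at 35.6, 28.6 and 53.3 CPM in *db/m* and 49.6, 63.4 and 27.0 in *db/db* replicates. Its groups overlapped, with the highest and the lowest mouse both *db/db*, and its log2 fold change was 0.25 (standard error 0.30, edgeR adjusted p = 0.751). Mrps35 and Mrps10 had 0.06 and 0.01, values under their standard errors of 0.23 and 0.24.

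The size of this median changed with the mice that were left out. On leaving out *db/db* replicate 3 the median became -0.08, with 51 of 77 genes lower and 0 lower at an unadjusted p under 0.05. Without *db/m* replicate 3 it was -0.13, with 63 lower and 1 at that p. Without *db/db* replicate 2 it was -0.39, with 77 lower and 13 at that p, and without *db/db* replicate 1 it was -0.26, with 3 at that p. The share of all genes at that p was not computed for these fits. With 1 mouse left out, 0 of the 77 had an edgeR adjusted p under 0.1 in any fit, beside 0.552% to 1.95% of all genes. With both *db/db* replicate 3 and *db/m* replicate 3 left out, a choice made after seeing the data, the median was 0.05, beside 0.02 over all genes, with 31 genes lower and 46 higher. These were the *db/db* mouse with the lowest and the *db/m* mouse with the highest levels of these genes. Leaving out both was therefore bound to raise the median and cannot tell what the difference rests on. With both left out, Mrpl23 was higher in *db/db* mice by 0.82 on the log2 scale (edgeR adjusted p = 0.0631). It was 1 of the 77 (1.3%) at an adjusted p under 0.1, beside 3.09% of all genes.

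In *db/db*-dapa against *db/m* mice most of these mRNAs had a log2 fold change below 0, without any past the test, and the spread among the treated mice was small. The log2 fold change was below 0 for 72 of the 77, with a median of -0.34, -0.36 for the large and -0.32 for the small subunit, beside 51.5% below 0 and a median of -0.02 over all genes. Of the 77, 0 were called, where 1.05% of all genes were, and 0 had an adjusted p under 0.1, where 1.31% did. The smallest adjusted p was 0.18, for Mrpl15. Other tools gave 2 genes with an adjusted p under 0.1 (DESeq2, Mrpl15 and Mrpl11), 0 (limma) and 35 (limma with weights for mice). Those are 2.6%, 0% and 45.5% of the 77, beside 6.39%, 1.19% and 40.3% of all genes in the same fits. At an unadjusted p under 0.05, 15 genes (19.5%) were lower and 0 higher, against 8.39% and 9.77% of all genes. Groups did not overlap for 33 genes (42.9%) that were lower and for 1 that was higher, beside 13.7% and 14.4% of all genes. Of the cytosolic ribosomal proteins, given below, 36 of 75 were lower without overlap. This comparison shares its *db/m* mice with that of *db/db* mice.

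Mrpl54, a small large-subunit protein, was at 66.3, 61.1 and 98.2 CPM in *db/m* and 49.0, 38.3 and 35.6 in *db/db*-dapa replicates. All treated mice lay below all *db/m* mice, and the log2 fold change was -0.87 (standard error 0.32, edgeR adjusted p = 0.219). Mrps6 had -0.86 (standard error 0.36) and Mrps21 had -0.78 (standard error 0.34), with edgeR adjusted p = 0.254 and 0.262. Mrps21 was at 157, 99.3 and 201 CPM in *db/m* and 103, 81.1 and 82.6 in *db/db*-dapa replicates, so that its groups overlapped. Mrpl12, which sits on the stalk that recruits translation factors and is also known to bind the mitochondrial RNA polymerase, lies on chromosome 11 from 120484613 to 120489065. It was at 298, 286 and 455 CPM in *db/m*, 280, 286 and 176 in *db/db*, and 244, 220 and 198 in *db/db*-dapa replicates. The treated mice did not overlap the *db/m* mice, and the difference was -0.65 on the log2 scale (standard error 0.24, edgeR adjusted p = 0.217). Mrpl15, a conserved large subunit protein, was at 80.6, 68.4 and 67.1 CPM in *db/m*, 62.5, 58.6 and 46.2 in *db/db*, and 49.4, 47.3 and 53.3 in *db/db*-dapa replicates. It lay below *db/m* without overlap in both groups of *db/db* mice, by -0.37 (standard error 0.17) and -0.53 (standard error 0.17).

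Mrpl3, a core protein of the large subunit, ran the other way. It lies on chromosome 9 from 105053239 to 105079888 and was at 34.5, 42.4 and 42.4 CPM in *db/m*, 31.3, 40.2 and 34.6 in *db/db*, and 45.7, 44.4 and 48.0 in *db/db*-dapa replicates. All 3 treated mice lay above all 6 others. The log2 fold change was 0.21 against *db/m* (standard error 0.16, edgeR adjusted p = 0.485) and 0.38 against *db/db* mice (standard error 0.16, edgeR adjusted p = 0.854). Mrps27, a pentatricopeptide repeat protein of the small subunit, and Mrps22, found in mitochondrial but not bacterial ribosomes, had 0.05 and 0.01 against *db/m*, both under their standard errors of 0.18 and 0.17.

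Leaving out *db/m* replicate 3 brought the median of this comparison to -0.20, with 69 genes lower and 3 lower at an unadjusted p under 0.05. That last count was 24 without *db/m* replicate 2, 5 without *db/db*-dapa replicate 2 and 2 without *db/db*-dapa replicate 3. The share of all genes at that p was not computed for these fits, so the counts cannot tell members from other genes. In each of these fits 0 members had an edgeR adjusted p under 0.1. Over all genes the share was 0.362%, 0.48%, 0.0901% and 0.264%, in the order given. With both extreme mice left out the median was also -0.20, and Mrpl15 and Mrpl54 had an edgeR adjusted p under 0.1 among 694 genes (4.51%) that did. Leaving out the *db/m* mouse with the highest levels of these genes was bound to raise this median.

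With dapagliflozin compared with vehicle in diabetic mice, the groups were close. The log2 fold change was below 0 for 55 of the 77 genes, with a median of -0.08, -0.06 for the large and -0.08 for the small subunit, beside 51.2% and a median of -0.01 over all genes. By edgeR's quasi-likelihood test 0 of the 77 were called and 0 had an adjusted p under 0.1, and the share among all genes tested was 0% by both rules. The smallest adjusted p of the 77 was 0.854, and other tools gave 0 (DESeq2), 0 (limma) and 1 gene (limma with weights for mice, Mrpl23) under 0.1, beside 0.135%, 0% and 6.93% of all genes. At an unadjusted p under 0.05, 1 gene was lower (Mrpl23) and 1 higher (Mrpl3), against 3.27% and 1.92% of all genes. Groups did not overlap for 0 lower and 4 higher genes (Mrpl3, Mrpl9, Mrps23 and Mrps27), beside 5.29% and 4.9% of all genes.

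Mrpl23 was at 49.6, 63.4 and 27.0 CPM in *db/db* and at 29.4, 27.8 and 27.8 in *db/db*-dapa replicates. Of the *db/db* mice, replicate 3 was at the level of the treated mice and the other two lay above them, and the log2 fold change was -0.71 (standard error 0.30, edgeR adjusted p = 0.854). Mrpl33, one of the shortest proteins of the large subunit, had -0.50 (standard error 0.28) and Mrpl54 had -0.47 (standard error 0.33), both with overlapping groups. Mrps27 was at 27.9, 31.6 and 24.0 CPM in *db/db* and 33.6, 36.5 and 33.0 in *db/db*-dapa replicates, without overlap, and had 0.31 (standard error 0.18). Mrps23 had 0.25 (standard error 0.17).

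Leaving out 1 mouse turned the direction of this median. On leaving out *db/db* replicate 3 the median became -0.26, and Mrpl23 had an adjusted p of 0.0911 in edgeR's test. In that fit 1.3% of the 77 and 2.7% of all genes had an adjusted p under 0.1. Without *db/db* replicate 2 the median was 0.04, and 55 genes were then higher. It was -0.14 without *db/db*-dapa replicate 1 and -0.03 without *db/db*-dapa replicate 3. With both extreme mice left out it was -0.28. In that fit 11 of the 77 (14.3%) had an edgeR adjusted p under 0.1, among 1548 genes (10.1%) that did. Of the 77, 1 was called (Mrpl23, by -1.004), among 600 calls over 15381 genes tested. These mice were picked by the levels of these same genes. Leaving out the lowest *db/db* mouse was bound to lower the median, so these counts cannot be read as a result about the members.

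**Figure D3:**
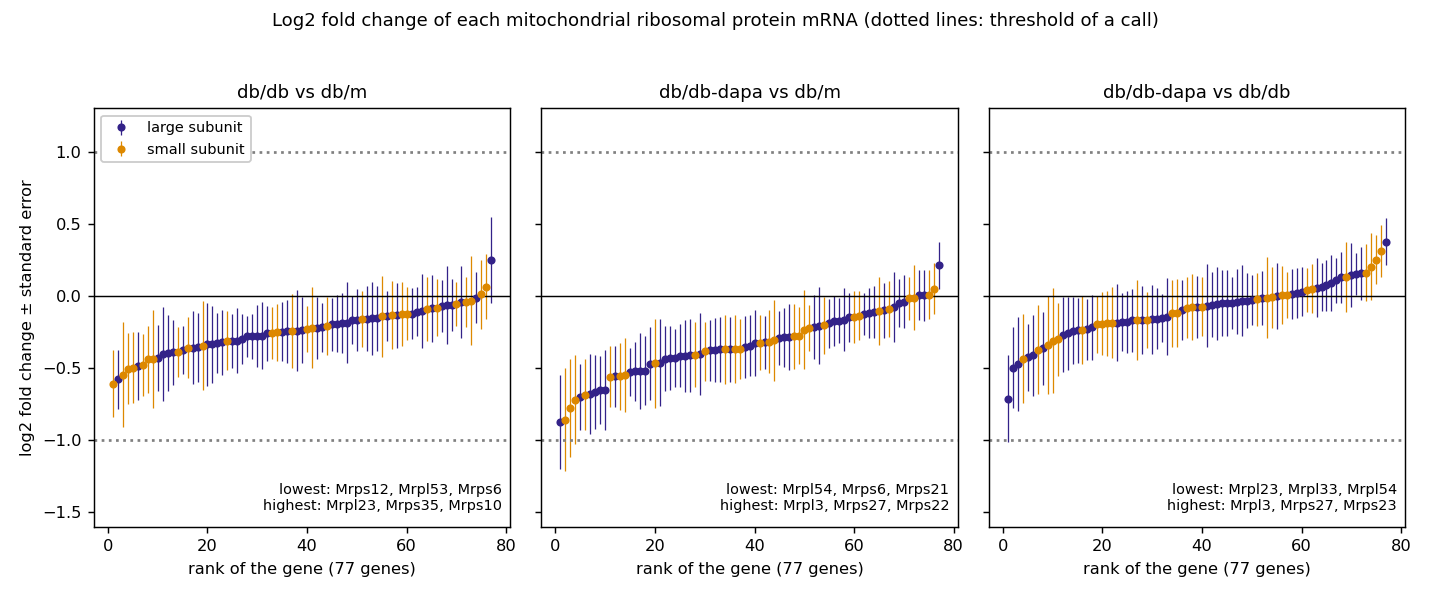
Log2 fold change and standard error of each of the 77 genes, ranked within each comparison and colored by subunit, with dotted lines at the fold threshold of a call. Medians are -0.24, -0.34 and -0.08 from left to right, large and small subunit genes are interspersed, and no gene lies beyond a dotted line.

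Among further members known for a role of their own, values ran from close to 0 to below the median of the 77. Mrpl45, which anchors the ribosome to the inner membrane, had -0.30 (standard error 0.17) in *db/db* and -0.17 (standard error 0.17) in *db/db*-dapa against *db/m* mice. It did not overlap *db/m* in either group, at 61.7, 60.7 and 66.9 CPM in *db/m*, 58.5, 56.0 and 40.0 in *db/db*, and 59.1, 55.7 and 53.4 in *db/db*-dapa replicates. Mrpl44, which resembles RNase III, had -0.20 (standard error 0.19) and -0.04 (standard error 0.18). Mrps7, Mrps16 and Mrps34, in which mutations are known to cause defects of mitochondrial translation in humans, had -0.44, -0.35 and -0.13 in *db/db* and -0.56, -0.72 and -0.37 in *db/db*-dapa mice, with standard errors of 0.23 to 0.31. The paralogs Mrps18a, Mrps18b and Mrps18c, each of which takes its own place in the ribosome, had -0.48, -0.21 and -0.03 in *db/db* and -0.56, -0.20 and -0.47 in *db/db*-dapa mice. Of these, Mrps18a did not overlap *db/m* in either group, at 79.7, 74.7 and 116 CPM in *db/m*, 70.4, 74.2 and 49.8 in *db/db*, and 62.6, 62.5 and 58.0 in *db/db*-dapa replicates. For none of these 8 genes was an edgeR adjusted p under 0.1.

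Mrpl46 of the large and Mrps11 of the small subunit lie head to head on chromosome 7, from 78775236 to 78783531 on the minus and from 78783119 to 78792989 on the plus strand, and their annotated exons overlap. Mrpl46 was at 40.0, 40.1 and 44.4 CPM in *db/m*, 41.5, 47.0 and 23.9 in *db/db*, and 32.4, 31.8 and 31.8 in *db/db*-dapa replicates. Mrps11 was at 33.5, 27.0 and 30.7, at 24.5, 38.4 and 15.8, and at 29.1, 26.8 and 21.8 CPM. In both, *db/db* replicate 2 was highest and *db/db* replicate 3 lowest of the 9 mice. Both were chosen after their values were seen.

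Other genes of mitochondrial translation were read from lists. The 6 proteins of the mitochondrial ribosome with other names shared the extreme mice, with median deviations of 0.57 in *db/m* replicate 3 and -0.56 in *db/db* replicate 3, and all 6 lay below 0 in both comparisons with *db/m*. They had medians of -0.31, -0.48 and -0.17 in the 3 comparisons, in the order given above. Of these, Aurkaip1 had the lowest value in *db/db*-dapa against *db/m* mice, -0.75 (standard error 0.24, edgeR adjusted p = 0.177), and Gadd45gip1 had -0.69. The 25 assembly factors, which modify and fold the rRNA or help subunits to mature, had medians of -0.12, -0.13 and -0.02. Among them Tfb1m, which methylates the 12S rRNA, had -0.72 (standard error 0.32) in *db/db* against *db/m* mice. The 16 translation factors had -0.09, -0.07 and 0.07, from Tufm, the elongation factor that brings aminoacyl-tRNA to the ribosome, at -0.45 to Guf1 at 0.42 in *db/db* against *db/m* mice. The 4 genes for transcription of mitochondrial DNA had -0.10, 0.09 and 0.15, and their RNA polymerase Polrmt had 0.58 (standard error 0.15, edgeR adjusted p = 0.113) and 0.41 (standard error 0.15) against *db/m*, without overlap. The 17 mitochondrial aminoacyl-tRNA synthetases had -0.05, 0.05 and 0.11. In these lists 0 genes were called and 0 had an adjusted p under 0.1 in any comparison, by edgeR's quasi-likelihood test. The shares over all genes were at most 1.26% and 1.7%. At an unadjusted p under 0.05, 3 of the 6 proteins with other names (50%) were lower in *db/db*-dapa against *db/m* mice, beside 8.39% of all genes. For 4 of these 6 the groups did not overlap, beside 13.7% of all genes. At that p, the other lists had 0 to 2 lower and 0 or 1 higher genes per comparison. Over all genes 3.27% to 8.39% were lower and 1.92% to 9.77% higher.

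Outside mitochondrial translation, 2 families of nuclear genes were highest and lowest in the same mice. Both have short transcripts, with median lengths of 914 bases for cytosolic ribosomal proteins and 908 bases for respiratory subunits. All genes of the shortest length class, given below, shared these extreme mice. The 75 cytosolic ribosomal proteins had a median deviation of 0.57 in *db/m* replicate 3 and -0.61 in *db/db* replicate 3, and the 83 nuclear-encoded respiratory subunits had 0.57 and -0.57. Their median log2 fold changes were -0.18, -0.51 and -0.32 for the first and -0.18, -0.44 and -0.24 for the second. By edgeR's test 0 genes of either were called. In *db/db*-dapa against *db/m* mice, 13 (17.3%) and 8 (9.64%) were lower at an unadjusted p under 0.05, beside 8.39% of all genes. There 36 of the 75 and 19 of the 83 were lower without overlap of the groups, beside 13.7% of all genes. The assembly factors, with a median transcript length of 2014 bases, were also highest in *db/m* replicate 3, at 0.15. They were at 0.00 in *db/db* replicate 3 and lowest in *db/db* replicate 1, at -0.10. The proximal tubule markers, with a median transcript length of 3983 bases, were highest in *db/db* replicate 3. They were at -0.10 in *db/m* replicate 3 and 0.48 in *db/db* replicate 3, with sums of 13532 and 20226 CPM. Their lowest deviation was -0.33 in *db/m* replicate 1, and *db/db* replicate 2 was at -0.31. In *db/m* replicate 3 and *db/db* replicate 3, collecting duct markers were at 1.61 and -0.41, with sums of 737 and 224 CPM. The 4 defining markers Aqp2, Aqp3, Hsd11b2 and Atp6v1g3 were detected in every group. Thick ascending limb markers were at 1.06 and -0.24 and distal tubule markers at 1.12 and -0.19, whereas leukocyte markers were at -0.36 and -0.77. Median transcript lengths were 1802.5 bases for collecting duct, 3075 for thick ascending limb, 4222 for distal tubule and 1273 for leukocyte markers. The 6 ribosomal proteins with other names, which shared both extreme mice, had 2537.5 bases. In *db/db*-dapa against *db/m* mice the median of the members was -0.34. The median log2 fold change was -1.41 for the collecting duct (4 of 4 below 0, 3 at an unadjusted p under 0.05). It was -0.69 for the thick ascending limb (3 of 3 and 1), -0.55 for the distal tubule (3 of 3 and 1) and -0.58 for leukocytes (6 of 6 and 0). Red blood cells were at -1.22 (5 of 5 and 0) and stroma at -0.31 (2 of 4 and 1). Other lists lay above 0, with 0.30 for the proximal tubule (8 of 9 above), 0.26 for endothelium (4 of 4) and 2.59 for podocytes (3 of 3). At that p 2 proximal tubule and 2 podocyte markers were higher. The podocyte sum was 214 CPM in *db/db*-dapa replicate 1 and 25.9 and 16.2 CPM in replicates 2 and 3. In bulk RNA, fewer cells of a type and less RNA per cell cannot be told apart, and the part of any of these cell types in the levels of the mitochondrial ribosomal proteins was not tested.

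**Figure D4:**
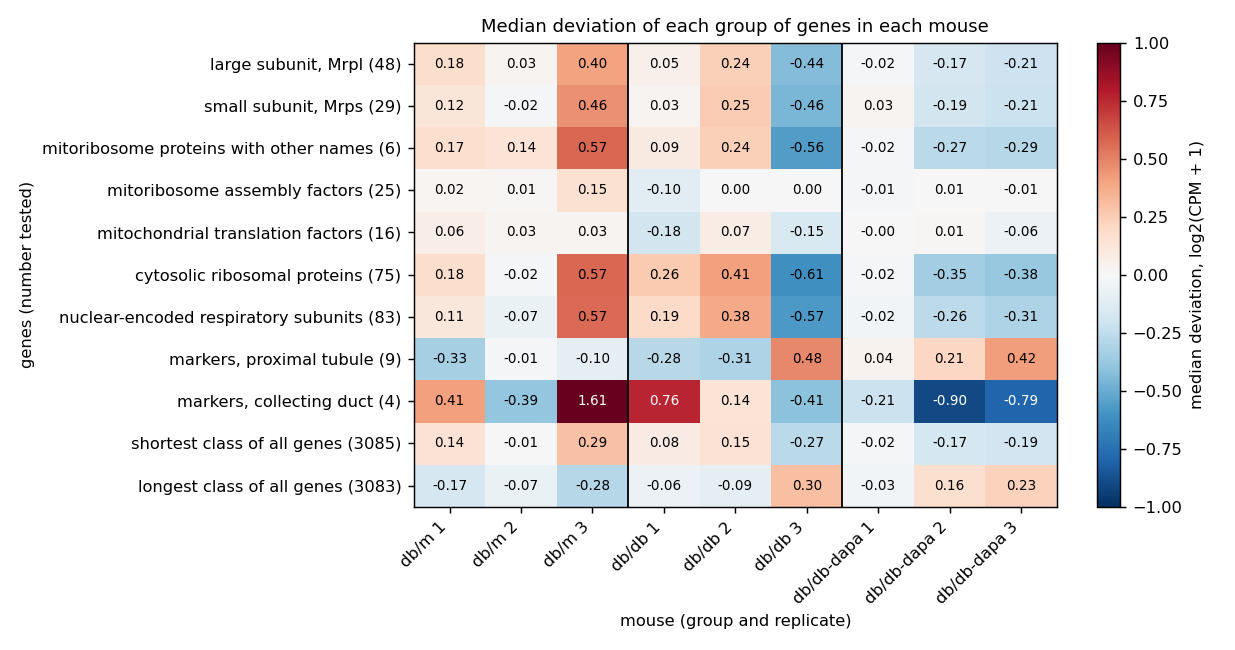
Median deviation on log2(CPM + 1) of each group of genes in each mouse, with the number of genes in parentheses and colors at their limit beyond 1. The Mrpl and Mrps genes, the cytosolic ribosomal proteins, the respiratory subunits and the shortest class of all genes by length share their highest mouse, *db/m* replicate 3, and their lowest, *db/db* replicate 3.

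Transcript length moved with the mice in the same way. The longest annotated transcripts of the 77 genes had a median length of 1316 bases, against 2973 over 15414 genes tested, and 47 of the 77 were in the shortest of 5 classes of equal size made of all genes by length (54 to 1629 bases). All genes of that class had a median deviation of 0.29 in *db/m* replicate 3 and -0.27 in *db/db* replicate 3, and the longest class had -0.28 and 0.30. In the shortest class, the median log2 fold change of the members was -0.24 for *db/db* mice and -0.38 for *db/db*-dapa mice, both against *db/m*, and -0.14 for treated against untreated mice. All 3085 genes of that class had -0.21, -0.38 and -0.16, close to the members in each comparison. Below 0 were 67.8%, 77.7% and 66.8% of these genes, and 45, 45 and 38 of the 47 members. Set against the median of its own length class, a member differed by a median of -0.12, -0.05 and -0.01 in the same order, with 58, 46 and 41 of 77 below. Of the 47 members of the shortest class, 29, 22 and 23 lay below its median. In class 2 (1630 to 2520 bases) it was 9, 5 and 2 of 10 members. Of the 20 members of the upper 3 classes, 20, 19 and 16 lay below the median of their class in the 3 comparisons. Mrpl3 was the one above it in *db/db*-dapa against *db/m* mice. In class 4 (3485 to 4931 bases), for example, 8 members had a median of -0.30 in *db/db*-dapa against *db/m* mice and all 3081 genes had 0.14. What sets the relation to length was not tested.

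**Figure D5:**
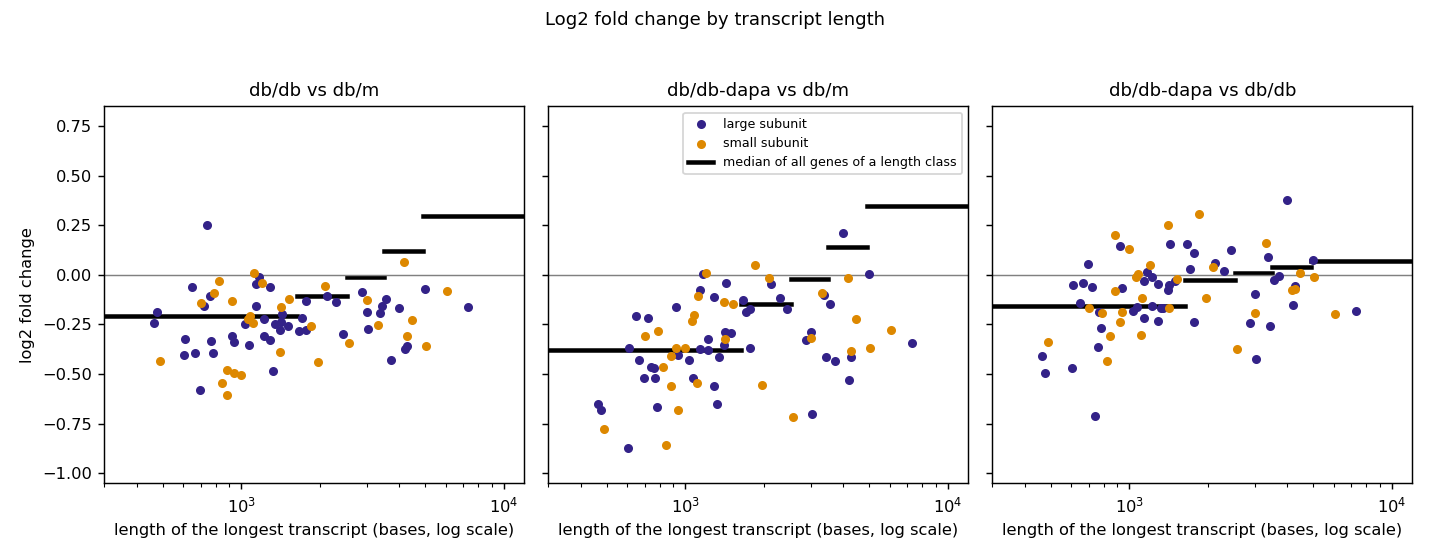
Log2 fold change of each gene against the length of its longest annotated transcript, with black bars for the median of all genes in each length class, drawn within the axis. The 47 members of the shortest class scatter around the bar of their class, and the members of the upper 3 classes lie mostly under theirs in both comparisons with *db/m* mice.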

How the data were processed

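Poly(A) RNA of sorted cells from 9 mice was analysed, 3 per group, with groups and replicate numbers from the sample labels. Each replicate was a separate animal. Per the labels and the study's methods, the authors made stranded libraries, sequenced them in single-end mode and mapped reads to mm10 with TopHat2 2.0.13 and Bowtie2 2.2.3, with SAMtools 0.1.19 and Cufflinks 2.2.1 also named in the submitters' processing notes. The deposited table is named as FPKM, but it holds estimated counts by its values, since 85.9% of those above 0 are whole. How these were counted is not given in the sources used here. There were 0 unused columns and 0 rows without a gene name.

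Values were rounded to whole numbers. Genes at 0.3 CPM or more in at least 2 mice were tested in 1 fit of all 9 mice, without a block, by edgeR 4.0.16 in R 4.3.3 (quasi-likelihood test in its legacy form, TMM scaling). Adjusted p-values follow Benjamini and Hochberg over all 15583 genes tested. Standard errors were derived from the F value. Deviations used log2(CPM + 1). Alternatives were DESeq2 1.42.0, limma 3.58.1 with and without mouse weights, other scalings and filters, a replicate block, only the mice compared and leaving out each mouse. The test was checked on simulated data. No pairing of mice by replicate number was assumed. For this, deviations were taken from the mean of the gene in its own group. They correlated at -0.32 to 0.56 for same-numbered mice and at -0.61 to 0.36 for mice with different numbers. Within a group these deviations depend on each other, and so do the correlations. The highest values were of same-numbered *db/db* and *db/db*-dapa mice, 0.56 for replicates 3 and 0.40 for replicates 1. With 3 mice per group these values cannot settle whether mice were paired, so the block is given as an alternative only.

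Coordinates and lengths of the longest transcript are from GENCODE's annotation of GRCm38, in which all 77 members were found, and promoters are from RefSeq (GRCm38.p6, the first listed for a gene). Protein sequences were not used here. Members and gene lists were chosen with earlier results of these data known. Named were the 3 highest and 3 lowest members of each comparison at 10 CPM or more, the 3 highest and 2 lowest of each subunit per length, the 3 with the largest spread within groups, members with a known role of their own, and the extremes of other lists. Genes whose groups did not overlap in the comparison of treatment, the genes with the lowest p and Mrpl46, Mrps11 and Mrpl15 were added after their values were seen. Depth was 2733349 to 9033123 counts per mouse.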

Additional observations from a re-analysis of the deposited data

How the results depend on the processing

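With every planned setting, the median of the 77 genes stayed below 0 when *db/db* or *db/db*-dapa were compared with *db/m* mice. Leaving out each mouse in turn gave -0.39 to -0.08 for *db/db* and -0.44 to -0.20 for *db/db*-dapa mice, both against *db/m*, and -0.26 to 0.04 for dapagliflozin against vehicle. Scaling by library total moved the median of all genes in *db/db* against *db/m* mice from 0.02 to 0.13, and that of the members to -0.13, so that their difference was -0.25 as against -0.26. With weights for mice in limma that difference was -0.11. With both extreme mice left out, chosen after seeing the data, the median was 0.0475 in *db/db* against *db/m* mice. The cause of these changes was not tested.

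The number of members at an adjusted p under 0.1 depended on the fit. When *db/db*-dapa were set against *db/m* mice it was 2 with DESeq2, 35 with weights for mice, 10 with only the 6 mice compared and 2 with both extreme mice left out. These are 2.6%, 45.5%, 13% and 2.6% of the 77, beside 6.39%, 40.3%, 9.86% and 4.51% of all genes. For dapagliflozin against vehicle it was 1 with weights (1.3%, beside 6.93% of all genes). On leaving out each mouse in turn it was 0 to 1, beside 0% to 2.7% of all genes. With both extreme mice left out, which were picked by these genes' own levels, it was 11 (14.3%), beside 10.1% of all genes. Of these 11, 1 was called. In *db/db* against *db/m* mice it was 1 with both left out, beside 3.09% of all genes. Whether replicate numbers pair the mice was not settled. With a replicate block 0 members passed, with medians of -0.25, -0.36 and -0.08.

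The median of the large minus that of the small subunit was -0.01, -0.05 and 0.02 in the 3 comparisons. Leaving out each mouse in turn gave -0.0613 to 0.0420, -0.0666 to -0.00103 and -0.0146 to 0.0307. The mean ratio of sums of the groups, in the order used above, was 2.30, 2.30 and 2.31 by structure. With geometric means, which are per gene, the mean ratio was 1.10, 1.11 and 1.10. With DESeq2 size factors the deviations of *db/m* replicate 3 and *db/db* replicate 3 were 0.40 and -0.44 for the large and 0.46 and -0.47 for the small subunit.

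Some values changed sign, and not only those near 0. Mrps10 in *db/db* against *db/m* mice was -0.0263 with limma, -0.00296 with the replicate block and -0.24 to 0.24 on leaving out each mouse in turn, where Mrps35 ranged from -0.11 to 0.29 and Mrpl23 from -0.0504 to 0.53. Mrps6 was 0.0186 with both extreme mice left out. Mrps22 in *db/db*-dapa against *db/m* mice was -0.00150 with DESeq2 size factors, -0.00670 with a filter at 1 CPM in 3 mice, -0.00261 with DESeq2, -0.0490 with both extreme mice left out and -0.0575 to 0.136 on leaving out each mouse in turn, where Mrps27 ranged from -0.0563 to 0.175.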
